A study of Mus musculus with 42 samples.

Results

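Ki67- microglia were compared between 6 and 4 months of age in the brains of male wild-type (WT) and APP/PS1 mice, to ask what changes with age in microglia that are not in cycle. The 14 libraries that belong to this comparison, of 42 in the series, were chosen by their labels as all Ki67- libraries at both ages: 5 WT and 4 APP/PS1 libraries aged 4 months, and 3 WT and 2 APP/PS1 libraries aged 6 months. APP/PS1 mice carry transgenes for mutant amyloid precursor protein and mutant presenilin 1, driven by a prion promoter that is active mainly in neurons, and they deposit amyloid in the brain. WT mice were littermates on the same C57BL/6 background, and no group received a treatment. After perfusion, microglia were enriched from the whole brain on Percoll, fixed in paraformaldehyde and frozen, and up to 400 CD11b+ CD45+ cells without nuclear Ki67 protein were sorted for each library. The sources used here do not give the number of brains behind a library, so the p-values below measure only the spread between libraries, which may be technical.

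Microglia are the resident macrophages of the brain and renew themselves by slow division, so that at any time most of them lack Ki67, a nuclear protein of cycling cells. In the healthy brain they keep a surveying state that depends on TGF-beta and on receptors such as P2ry12 and Cx3cr1. Near amyloid plaques they pass into a state called disease-associated, in which lipid-handling and lysosomal genes such as Apoe and Cst7 rise. Many stimuli, among them the handling of tissue, also switch on immediate-early genes such as Jun and Dusp1 within minutes, before new protein is made.

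The deposited values are on a log2 scale after normalization and after the removal of 10 surrogate variables by the authors. A difference of 1 is thus close to a doubling for well expressed genes. Near the lower end of the scale it cannot be read as a fixed ratio. Counts per library cannot be read from them, and depth is therefore unknown. The 14 libraries were closely aligned, with medians over the tested genes from 8.18 to 8.24. Replicates of the same gene varied with a median SD of 0.211 in WT and 0.308 in APP/PS1 libraries at 4 months, and of 0.346 and 0.245 at 6 months. WT replicates 1 and 2 at 4 months nearly coincided, with a median absolute difference of 0.0228 per gene, where the other pairs of that group differed by 0.186 to 0.348. The test covered 12474 genes whose mean reached 7 in any of the 4 groups.

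The sort was checked first on marker genes. Cx3cr1, the fractalkine receptor of microglia, lay between 14.20 and 14.60 in the 9 libraries at 4 months and between 14.26 and 14.77 in the 5 libraries at 6 months. P2ry12, a purinergic receptor, lay at 13.76 to 14.29 and 13.63 to 14.40, and Tmem119 at 13.89 to 14.61 and 13.70 to 14.31. These microglial genes were among the highest in the table, and none of them passed the test between ages (differences 0.04, -0.17 and -0.25, limma adjusted p of 0.923, 0.671 and 0.488). The transcript of Mki67, which encodes Ki67, lay at 7.09 to 8.37 at 4 months and 7.34 to 8.31 at 6 months. Its group means in the Ki67+ libraries of the same ages, from 7.59 to 8.84, overlapped these values although the protein defined the gate, and the difference between the sorted populations was not tested.

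With genotype as a blocking factor, 31 genes rose and 46 fell from 4 to 6 months (limma, Benjamini-Hochberg adjusted p under 0.05), which is 0.249% and 0.369% of the genes tested. The genes that rose did so by 0.86 to 1.96, with a median of 1.09, and those that fell did so by 0.80 to 1.94, with a median of 1.04. Ppp1r15a, a gene of the stress response, and the immediate-early genes Jun, Junb, Klf6 and Dusp1 were among those that fell. Slc25a10, a mitochondrial carrier gene, and Dctn1, a gene of the dynactin complex, were among those that rose. Over all genes the median difference was -0.01, and 2092 genes had an unadjusted p under 0.05.

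**Figure D1:**
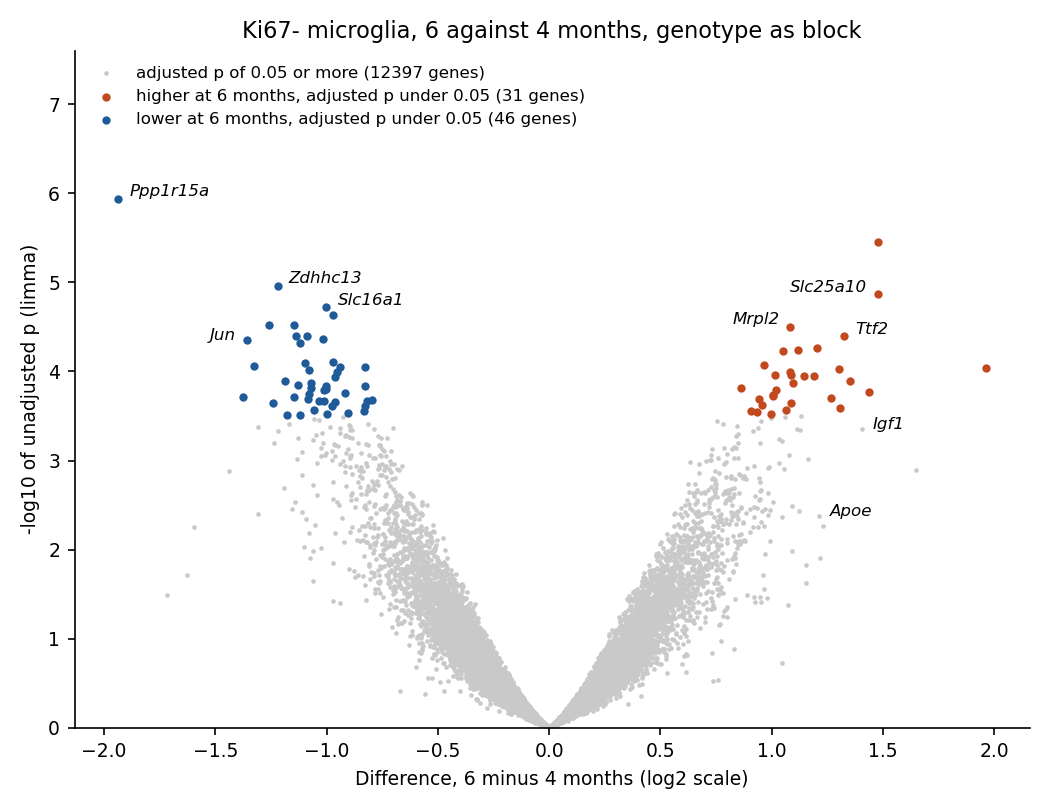
Difference between 6 and 4 months (log2 scale, x axis) against the -log10 of the unadjusted limma p (y axis) for each of the 12474 genes tested in Ki67- microglia, with the 31 genes called higher in red and the 46 called lower in blue. Ppp1r15a stands furthest from the rest among the genes that fell, at -1.94, while Igf1 and Apoe lie below the called genes.

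In 25 of the 31 genes that rose, all 5 libraries at 6 months lay above all 9 at 4 months, and in 40 of the 46 that fell all 5 lay below. Among all genes tested, 119 (0.954%) and 186 (1.49%) had such separated values. The called genes were chosen on these same libraries, which favours separated values among them. With the run of numbers that opens the library titles as a further term, an alternative added after the data were seen, no gene was called (limma, lowest adjusted p 0.0838; 1714 genes with an unadjusted p under 0.05). Leaving out 1 library at a time left 0 to 21 genes higher and 1 to 28 lower, and counting the nearly coinciding WT replicates 1 and 2 as 1 library, an alternative added after the data were seen, left 6 and 12. Ppp1r15a was the only one of the 24 genes singled out by rank that stayed called whichever of the 14 libraries was left out.

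Promoters are shown here for Ppp1r15a, the gene with the lowest p, and for the 4 immediate-early genes that fell. The list of those 4 was picked because it held more called genes than any other. It covers immediate-early and dissociation response genes and is called the immediate-early list below. Each line gives the 250 bases before the RefSeq transcription start (GRCm38.p6), in the direction of the gene. Capitals mark matches to TGACNTCA on either strand and to TATAAA on the strand of the gene. TGACNTCA is a looser pattern than TGACGTCA, the cAMP response element that CREB and ATF proteins bind.
Ppp1r15a: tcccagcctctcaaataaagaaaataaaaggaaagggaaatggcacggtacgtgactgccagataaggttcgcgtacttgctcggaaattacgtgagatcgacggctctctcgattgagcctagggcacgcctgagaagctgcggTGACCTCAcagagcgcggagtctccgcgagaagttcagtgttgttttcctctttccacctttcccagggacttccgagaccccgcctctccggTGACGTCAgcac
Jun: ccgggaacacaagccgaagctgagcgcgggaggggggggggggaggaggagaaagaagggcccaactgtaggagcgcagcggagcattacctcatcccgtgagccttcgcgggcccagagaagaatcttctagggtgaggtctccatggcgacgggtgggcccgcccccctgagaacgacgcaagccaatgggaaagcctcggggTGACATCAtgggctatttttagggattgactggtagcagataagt
Klf6: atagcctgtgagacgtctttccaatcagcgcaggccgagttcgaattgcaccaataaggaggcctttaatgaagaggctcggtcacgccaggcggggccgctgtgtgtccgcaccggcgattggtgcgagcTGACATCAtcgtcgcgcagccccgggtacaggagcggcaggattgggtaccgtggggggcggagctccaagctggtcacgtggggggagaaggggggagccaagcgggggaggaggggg
Dusp1: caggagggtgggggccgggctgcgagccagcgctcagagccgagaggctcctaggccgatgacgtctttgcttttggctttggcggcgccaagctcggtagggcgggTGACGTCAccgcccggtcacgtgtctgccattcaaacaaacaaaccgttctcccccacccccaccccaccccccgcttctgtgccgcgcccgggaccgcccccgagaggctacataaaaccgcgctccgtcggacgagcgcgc
Junb: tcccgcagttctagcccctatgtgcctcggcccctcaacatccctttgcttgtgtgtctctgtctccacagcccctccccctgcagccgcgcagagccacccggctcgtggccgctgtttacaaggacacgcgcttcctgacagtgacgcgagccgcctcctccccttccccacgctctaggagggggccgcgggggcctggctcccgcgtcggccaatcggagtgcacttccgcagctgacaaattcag
The windows lie at chr7:45526269-45526518, chr4:95052223-95052472, chr13:5861239-5861488, chr17:26508473-26508722 and chr8:84978749-84978998, on the minus strand except for Klf6. Ppp1r15a held the full TGACGTCA 12 to 5 bases before its start and a second match, TGACCTCA, at 105 to 98. Dusp1 held TGACGTCA at 143 to 136, Jun held TGACATCA at 45 to 38, and Klf6 held TGACATCA at 119 to 112, while Junb held no match. TGACNTCA was found in 6 of the 36 genes called lower that had a promoter in the table (16.7%), in 2 of 27 called higher (7.41%), in 606 of 9835 tested genes (6.16%) and in 2052 of all 27025 promoters (7.59%). The 6 genes were Dusp1, H2-Q10, Jun, Klf6, Ppp1r15a and Tmc7. TGACNTCA was chosen after the promoters shown had been read, among them those of Dusp1, Jun, Klf6 and Ppp1r15a. TATAAA was likewise found in 6 of the 36 genes called lower (16.7%), in 1 of 27 called higher (3.7%) and in 380 of 9835 tested genes (3.86%). TGACGTCA, also counted, was found in 3 (8.33%), 1 (3.7%) and 278 (2.83%) of the same sets. TGACTCA or TGAGTCA was found in 2 (5.56%), 2 (7.41%) and 277 (2.82%). The CArG box, CC and GG around 6 bases of A or T, was found in 2 (5.56%), 1 (3.7%) and 114 (1.16%). A match is a description of the sequence, not a binding site.

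Ppp1r15a, also known as GADD34, directs protein phosphatase 1 to the translation factor eIF2alpha and so lifts the translational block of the stress response. Its values were 11.64, 11.63, 11.47, 11.58 and 11.77 in the WT libraries at 4 months and 12.28, 11.19, 12.91 and 12.28 in the APP/PS1 libraries. At 6 months they were 10.01, 9.31 and 10.05 in WT and 9.98 and 10.18 in APP/PS1 libraries. All 5 libraries at 6 months thus lay more than a whole unit below the lowest at 4 months, and the age groups did not overlap. The difference was -1.94 ± 0.25 (SE; limma adjusted p = 0.0143), with -1.83 in WT and -2.09 in APP/PS1 mice.

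Jun and Junb encode subunits of the AP-1 transcription factor. Jun lay at 14.42, 14.37, 13.61, 13.87 and 14.99 in WT and 13.90, 13.81, 14.66 and 13.83 in APP/PS1 libraries at 4 months. At 6 months it lay at 12.55, 12.99 and 12.94 in WT and 12.75 and 12.82 in APP/PS1 libraries. The lowest library at 4 months was above the highest at 6 months by more than the whole range of the 6-month values, and the difference was -1.36 ± 0.24 (limma adjusted p = 0.04). Junb lay between 12.34 and 13.27 (median 12.72) at 4 months and at 11.51, 11.86 and 11.27 in WT and 11.70 and 11.81 in APP/PS1 libraries at 6 months, again without overlap (-1.14 ± 0.20, limma adjusted p = 0.04). Klf6, a zinc-finger transcription factor, went from 11.75 to 12.87 (median 12.05) to 10.93 to 11.53 (median 11.05), a difference of -1.003 ± 0.20. Dusp1, the phosphatase that switches off p38 and JNK, went from 13.85 to 15.50 (median 14.13) to 12.76 to 13.47 (median 13.26), a difference of -1.12 ± 0.24. Both passed the limma test narrowly, with adjusted p of 0.044 and 0.0498.

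Of the 25 tested genes of the immediate-early list, these 4 fell, 1 rose and 20 did not pass the test. Differences were negative in 20 of the 25, and the median of the list was -0.72 beside -0.01 over all genes. Egr1, a zinc-finger factor of the same class, had a difference of -0.69 ± 0.21 (limma adjusted p = 0.126), and Fos, the partner of Jun, one of -1.06 ± 0.23 (limma adjusted p = 0.0519). The member that rose was Nr4a2, an orphan nuclear receptor, which lay at 6.36 to 7.48 at 4 months, near the lower end of the scale, and at 8.84, 7.61 and 7.09 in WT and 8.20 and 8.52 in APP/PS1 libraries at 6 months (1.31 ± 0.28, limma adjusted p = 0.0483). It thus moved against the list, and 1 WT library at 6 months stayed within the 4-month range. Averaged over the 25 genes, the level of a library was 10.995 to 11.83 (median 11.32) at 4 months and 10.90, 10.80, 10.77, 10.90 and 10.76 at 6 months. Every 6-month library was below every 4-month library, and the genotypes overlapped at each age.

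Dusp6, a phosphatase of ERK, Tnfaip3, the NF-kB inhibitor A20, and Trib1, a pseudokinase that directs proteins to degradation, were also called lower. Their differences were -0.96, -1.001 and -1.08 (limma adjusted p of 0.0446, 0.044 and 0.0425), and these 3 genes were named together after their values had been seen. Tsc22d3, a glucocorticoid-induced leucine zipper protein, lay at 10.44, 10.45, 10.76, 10.81 and 10.29 in WT and 11.46, 11.31, 11.66 and 10.96 in APP/PS1 libraries at 4 months and at 9.77, 9.89 and 9.91 and 9.60 and 9.32 at 6 months. It was higher in APP/PS1 than in WT libraries at 4 months and lower at 6 months, and its difference was -1.19 ± 0.23 over both genotypes (limma adjusted p = 0.044), with -0.69 in WT and -1.88 in APP/PS1 mice. Of the 17 tested genes of the glucocorticoid and circadian list Tsc22d3 alone was called, and all 17 differences were negative (median -0.47). Among them the glucocorticoid-induced kinase Sgk1 had a difference of -0.89 ± 0.20 (limma adjusted p = 0.0558) and the clock repressor Nr1d1 one of -0.77 ± 0.20 (limma adjusted p = 0.0878).

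Hspa5, the chaperone BiP of the endoplasmic reticulum, was the 1 called gene of 23 tested in the heat shock and unfolded protein list. It went from 12.13 to 12.79 (median 12.40) at 4 months to 11.34, 11.79 and 11.38 in WT and 11.63 and 11.67 in APP/PS1 libraries (-0.83 ± 0.18, limma adjusted p = 0.0488). Differences were negative in 20 of the 23 genes, with a median of -0.57. The mean level of this list was 10.71 to 11.66 (median 11.15) at 4 months and 10.92, 10.63, 10.83, 10.77 and 10.58 at 6 months. The ages overlapped through 1 APP/PS1 library at 4 months (10.71), in contrast to the immediate-early list. The glucocorticoid and circadian list was also without overlap, at 8.77 to 9.27 at 4 months and 8.34 to 8.66 at 6 months. H3f3b, a gene of the replacement histone H3.3 with close copies in the genome, fell by 1.32 (limma adjusted p = 0.0425), from 12.77 to 14.31 at 4 months to 11.73 to 12.59 at 6 months.

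Slc16a1, Pygm, Zdhhc13 and Rgs1 were further genes that fell with separated values, and they serve metabolism, protein modification and receptor signalling. Slc16a1, the lactate and pyruvate transporter MCT1, lay at 7.85, 7.84, 7.88, 8.002 and 7.63 in WT and 8.17, 7.78, 7.78 and 7.78 in APP/PS1 libraries at 4 months and at 6.95, 6.82 and 6.78 and 7.03 and 6.69 at 6 months (-1.001 ± 0.16, limma adjusted p = 0.04). Its 6-month values were close to the lower end of the scale in both genotypes, and it passed the filter on low values through the 4-month groups alone. Pygm, the muscle form of glycogen phosphorylase, went from 7.47 to 8.29 to 6.75 to 7.002 (-1.02 ± 0.18). Zdhhc13, a palmitoyltransferase, went from 7.81 to 8.33 to 6.53 to 7.44 (-1.22 ± 0.19), with the higher of the 2 APP/PS1 libraries at the top of that range. Rgs1, which shortens signalling by G protein-coupled receptors, was a highly expressed gene at 11.74 to 12.44, and at 6 months it lay at 10.73, 11.08 and 10.98 in WT and 11.40 and 11.30 in APP/PS1 libraries (-0.97 ± 0.16).

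The other genes that fell and ranked among the first 12 were expressed at a low to middle level or came from the mitochondrial genome. The actin-binding protein gene Cnn2 (-1.14), the membrane protein gene Tmc7 (-1.09), Fam71a (-1.26) and Taf13, a subunit of the general transcription factor TFIID (-0.97), had limma adjusted p-values from 0.040 to 0.042. Fam71a was the most uniform of them at 6 months, with 7.33, 7.28 and 7.38 in WT and 7.65 and 7.64 in APP/PS1 libraries after 7.96 to 9.23 at 4 months.

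**Figure D2:**
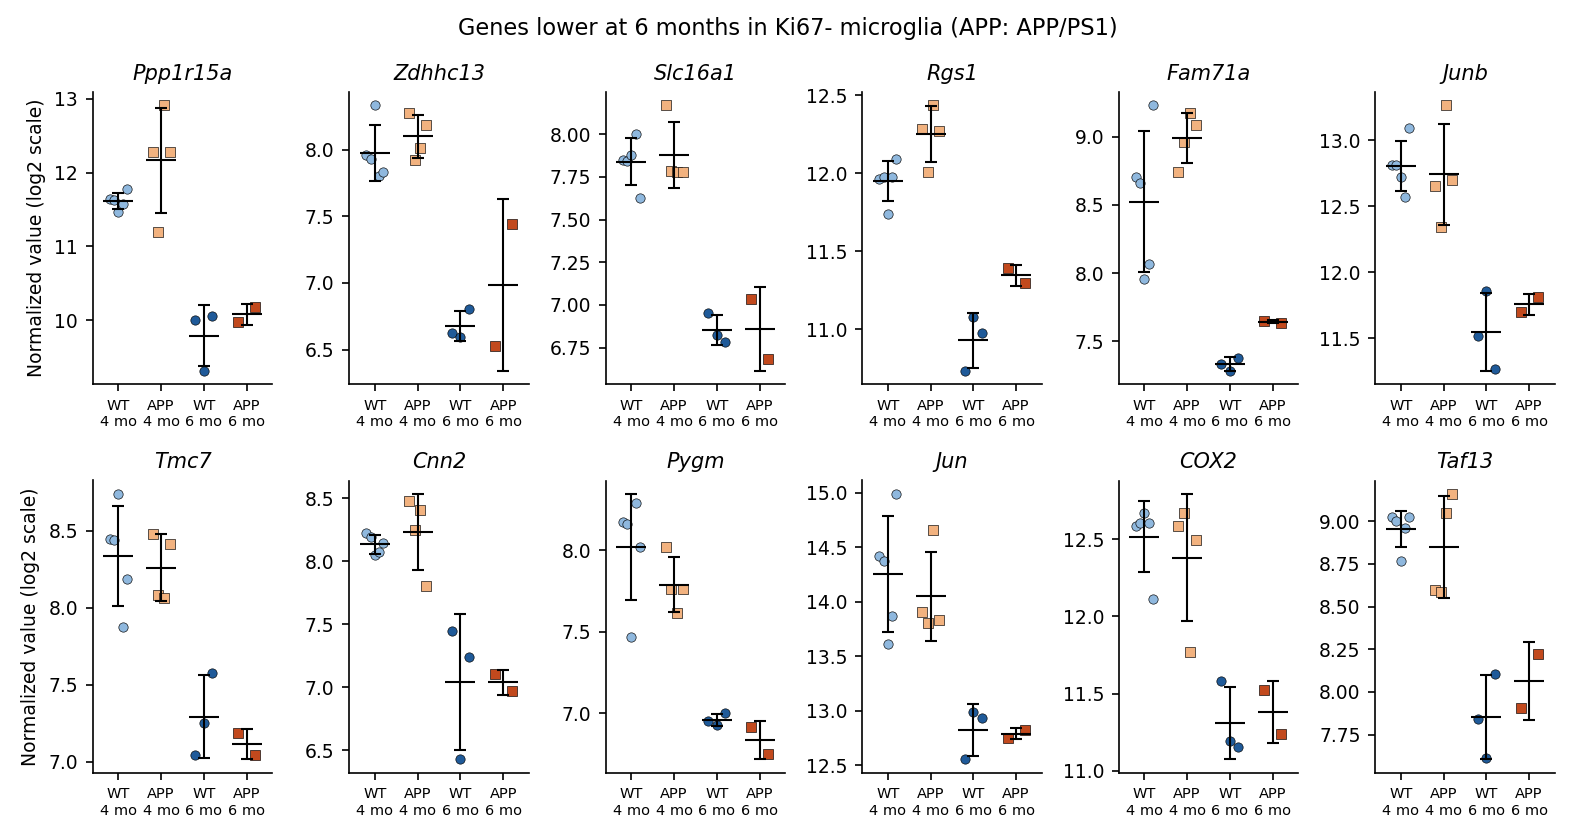
Normalized value (log2 scale, y axes that do not start at 0) of the 12 genes that fell with the lowest p among those with separated values, in each Ki67- library; circles are WT and squares APP/PS1 libraries, pale at 4 and dark at 6 months, and bars give the mean and SD of each group (n = 5, 4, 3 and 2). In each panel the 5 libraries at 6 months lie below the 9 at 4 months.

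COX2, the mitochondrially encoded subunit 2 of cytochrome c oxidase, lay at 12.59, 12.60, 12.67, 12.61 and 12.11 in WT and 12.59, 12.67, 11.77 and 12.49 in APP/PS1 libraries at 4 months and at 11.58, 11.19 and 11.15 and 11.52 and 11.24 at 6 months (-1.12 ± 0.20, limma adjusted p = 0.04). The 13 protein-coding genes of the mitochondrial genome were then taken as a group, a list added after their values had been seen. COX2 alone was called, 12 of the 13 differences were negative and their median was -0.73. COX1 had a difference of -0.89 ± 0.20 (limma adjusted p = 0.0599) and ND1 one of -0.85 ± 0.20 (limma adjusted p = 0.07), whereas ND6, the only one of them encoded on the light strand, had 0.08 ± 0.19. The mean level of the 13 genes was 12.62, 12.62, 12.38, 12.74 and 12.73 in WT and 12.37, 12.61, 12.07 and 12.77 in APP/PS1 libraries at 4 months. At 6 months it was 11.77, 11.62 and 11.44 in WT and 12.32 and 12.23 in APP/PS1 libraries. The 3 WT libraries at 6 months were therefore lower than all others, and the 2 APP/PS1 libraries lay within the 4-month range. The median difference of the 13 genes was -1.15 in WT and -0.10 in APP/PS1 mice, and no single one of them passed the test of the difference between genotypes (lowest limma adjusted p 0.444, for ND4L). None of the 51 nuclear genes of oxidative phosphorylation was called, and their median was 0.25, of opposite sign to the mitochondrial genes. Nuclear copies of mitochondrial sequence can share reads with these genes.

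Slc25a10, the dicarboxylate carrier of the inner mitochondrial membrane, led the genes that rose by the rule for named genes. It lay at 7.14, 7.09, 7.64, 7.20 and 7.34 in WT and 6.52, 7.37, 7.56 and 6.91 in APP/PS1 libraries at 4 months. At 6 months the values were 8.37, 8.99 and 8.08 in WT and 8.89 and 9.05 in APP/PS1 libraries, all above the highest at 4 months (1.48 ± 0.24, limma adjusted p = 0.04). Mrpl2, a protein of the large mitochondrial ribosome, lay at 7.81 to 8.48 (median 8.10) at 4 months and at 9.25, 9.54 and 8.91 in WT and 8.98 and 9.41 in APP/PS1 libraries at 6 months (1.08 ± 0.19, limma adjusted p = 0.04). Mrpl2 was the only called gene of 34 tested mitochondrial ribosomal proteins, of which 20 had positive differences (median 0.11), so the list as a whole did not move with it.

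Several genes that rose belong to transport along microtubules and to endosomes. Dctn1, the largest subunit of the dynein activator dynactin, went from 8.11 to 8.66 (median 8.31) to 8.94, 10.04 and 8.97 in WT and 9.63 and 9.54 in APP/PS1 libraries (1.09 ± 0.21, limma adjusted p = 0.0425). Vac14, the scaffold of the kinase complex that makes the endolysosomal lipid PI(3,5)P2, went from 8.48 to 9.40 to 9.61 to 10.33 (1.08 ± 0.21). Pik3r4, a regulatory subunit of the class III phosphoinositide 3-kinase, rose by 0.94, and Sort1, the sorting receptor sortilin, by 1.09. Sort1 was the best expressed of these genes, at 9.78 to 10.99 at 4 months and 11.23 to 11.91 at 6 months. No list fixed for this work covers endosomal transport, and these 4 genes were put side by side after their values had been seen.

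Among the remaining genes that rose were several whose products act in the nucleus, picked out after their values had been seen and covered by no list as a group. Ttf2, an ATPase that ends transcription, lay at 6.18 to 7.05 at 4 months and at 8.33, 7.36 and 7.69 in WT and 8.53 and 8.47 in APP/PS1 libraries at 6 months (1.33 ± 0.23, limma adjusted p = 0.04). Ttf2 passed the filter on low values through the 6-month groups alone, and with all genes tested it was not called (limma adjusted p = 0.0699). Morc2a, an ATPase of heterochromatic silencing, rose by 1.30 ± 0.25, and Snrpn, an imprinted splicing protein gene whose transcript also carries Snurf, by 1.14 ± 0.22. The DNA glycosylase Ogg1, which removes oxidized guanine, lay at 6.86 to 7.27 and then at 7.35 to 8.13 (0.86 ± 0.17). Lmo2, an adaptor of haematopoietic transcription complexes, rose by 1.05 ± 0.19, with values of 9.77 to 10.68 at 4 months and 10.53 to 11.74 at 6 months that overlapped in 1 WT library. Tstd2 (1.20), the Arf GTPase-activating protein gene Agap3 (1.12), the choline transporter gene Slc44a1 (0.97) and Kctd3 (1.01) completed the first 12 genes together with Hpse.

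Hpse, the heparan sulfate-cleaving enzyme heparanase, was close to the lower end of the scale at 4 months, at 5.43, 5.48, 5.48, 5.46 and 5.77 in WT and 5.76, 5.50, 5.48 and 5.68 in APP/PS1 libraries. It lay at 6.54, 5.84 and 6.48 in WT and 7.35 and 8.22 in APP/PS1 libraries at 6 months. The difference of 1.35 ± 0.27 (limma adjusted p = 0.044) combined 0.76 in WT with 2.18 in APP/PS1 mice. Hpse passed the filter on low values through the APP/PS1 libraries at 6 months alone, and with all genes tested it was not called (limma adjusted p = 0.0825). Of the 31 genes called higher, 5 reached the minimum mean of 7 in groups at 6 months only, and 15 of the 46 called lower reached it in groups at 4 months only.

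**Figure D3:**
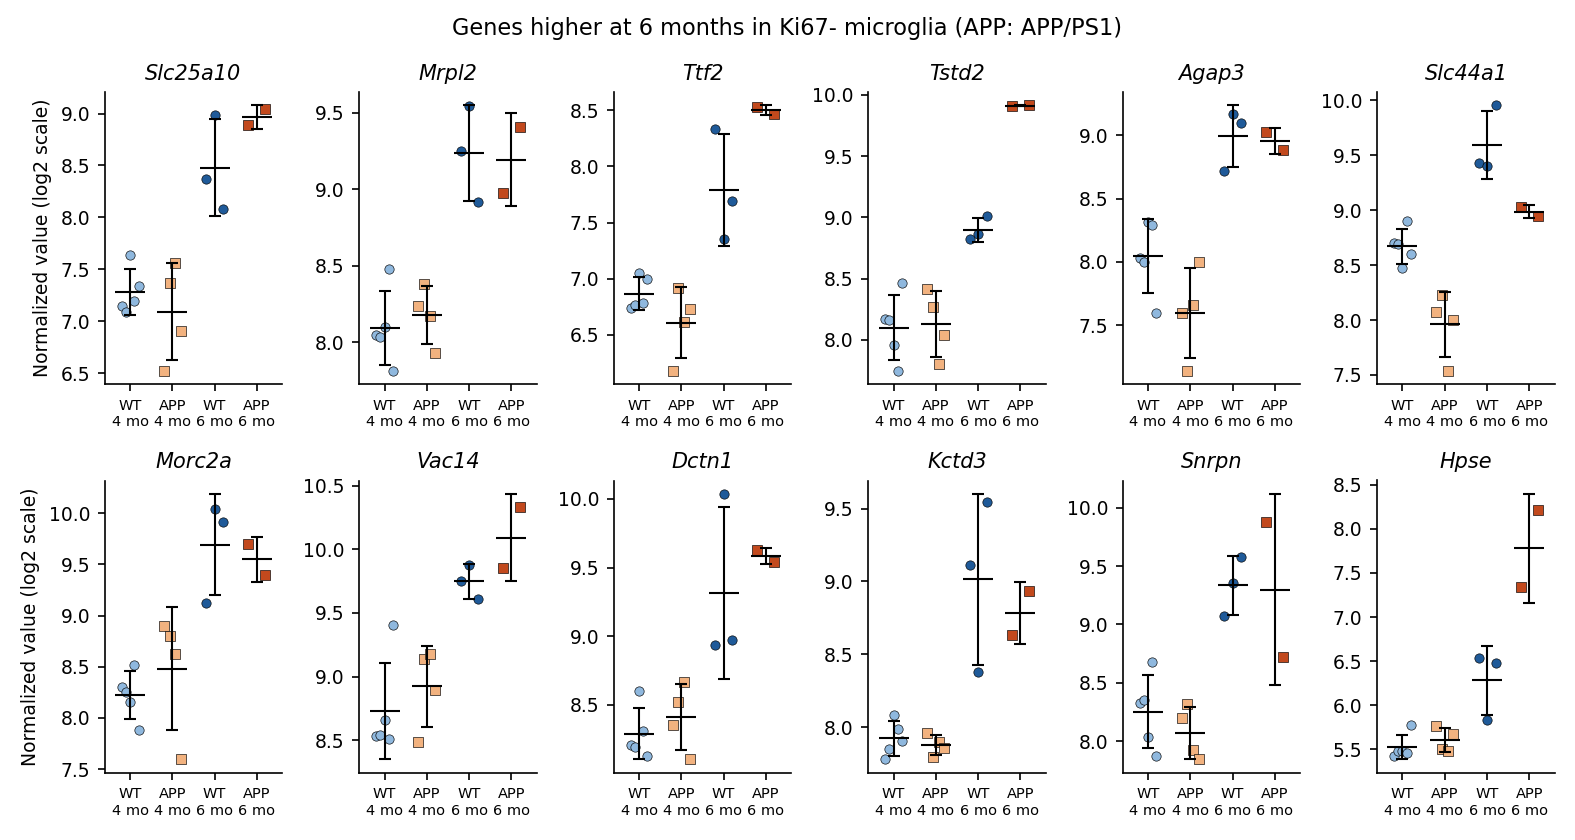
Normalized value (log2 scale, y axes that do not start at 0) of the 12 genes that rose with the lowest p among those with separated values, in each Ki67- library; symbols and bars as for the genes that fell. Hpse and Tstd2 lie highest in the 2 APP/PS1 libraries at 6 months.

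The change with age was also fitted in each genotype and compared between them. In WT mice no gene was called (limma, lowest adjusted p 0.0836; 1611 genes with an unadjusted p under 0.05), and in APP/PS1 mice 8 genes rose and 1 fell, 0.0722% of those tested. The genes that rose in APP/PS1 mice were Actr3b, Chst2, Cst7, Hpse, Tstd2, Ttf2 and 2 RIKEN transcripts, and Tsc22d3 fell. All 77 genes called over both genotypes had the same sign in each genotype, a count that the choice of genes favours. For the difference between genotypes no gene was called by limma (lowest adjusted p 0.444; 862 genes with an unadjusted p under 0.05), so that the calls in 1 genotype do not show a change particular to it.

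Cst7, which encodes the cathepsin inhibitor cystatin F and marks disease-associated microglia, was 1 of the 9 genes called in APP/PS1 mice and is described here after its values had been seen. In WT libraries it lay at 7.07, 7.12, 6.26, 7.44 and 6.83 at the earlier age and 6.69, 7.51 and 7.01 at the later. In APP/PS1 libraries it lay at 9.38, 9.94, 8.41 and 8.68 and then at 11.85 and 11.86, so that both libraries at 6 months were above all others. The difference was 0.13 in WT mice and 2.75 ± 0.43 in APP/PS1 mice (limma adjusted p = 0.0301), and that between genotypes was 2.62 ± 0.56 (limma adjusted p = 0.444). Axl, a receptor for phosphatidylserine-bearing debris, went from 8.78, 8.76, 8.79, 9.09 and 8.97 to 8.31, 8.34 and 8.07 in WT and from 8.94, 9.495, 8.66 and 7.55 to 10.99 and 10.69 in APP/PS1 libraries, a difference between genotypes of 2.82 ± 0.54 (limma adjusted p = 0.444). Axl had one of the 5 lowest p-values for this difference, and the other genes among the 5, none of them called, were Aplp1 (-2.63), Zfp956 (2.19), the glutamate transporter gene Slc1a2 (-3.44) and X4930502E18Rik (1.61).

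None of the 23 tested genes of the disease-associated list was called over both genotypes, although 19 had positive differences and the median was 0.44. Igf1, insulin-like growth factor 1, came closest (1.41 ± 0.31, limma adjusted p = 0.0558), from 6.29 to 7.62 at 4 months to 8.32, 8.86 and 6.92 in WT and 9.43 and 8.30 in APP/PS1 libraries. Apoe, the lipid carrier apolipoprotein E, lay at 12.88 to 14.14 at 4 months and at 14.66, 14.16 and 13.34 in WT and 15.81 and 16.07 in APP/PS1 libraries at 6 months (1.21 ± 0.36, limma adjusted p = 0.121). The mean level of the list was 10.12, 10.14, 9.88, 10.14 and 10.35 in WT and 10.41, 10.72, 10.26 and 10.47 in APP/PS1 libraries at 4 months. At 6 months it was 10.13, 10.36 and 9.81 in WT and 11.57 and 11.56 in APP/PS1 libraries. The 2 APP/PS1 libraries at 6 months were the highest of all 14, while the WT libraries of both ages overlapped, and the median difference of the list was -0.01 in WT and 0.97 in APP/PS1 mice.

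**Figure D4:**
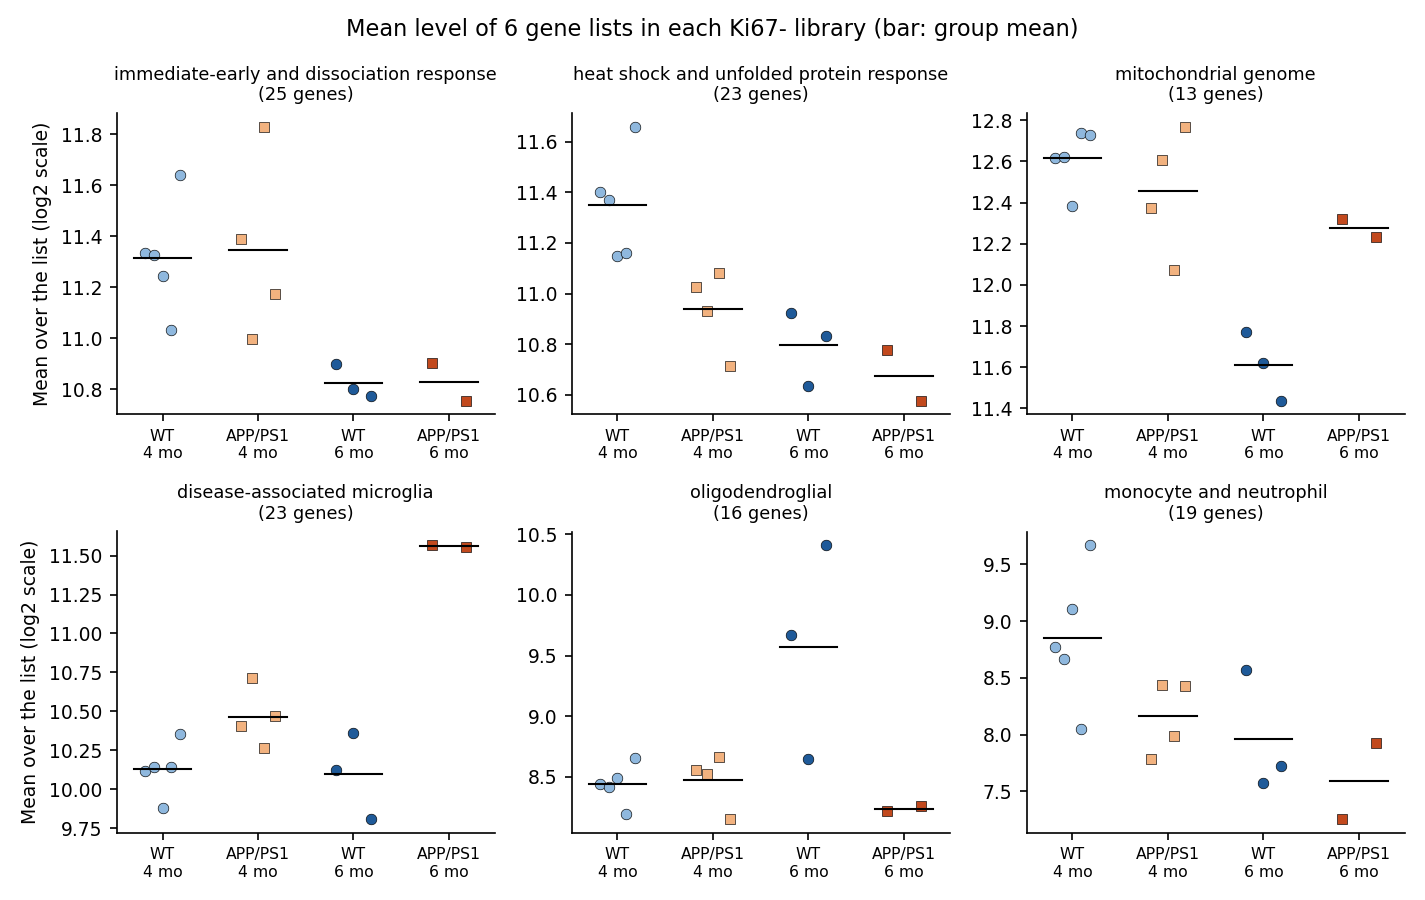
Mean level over the tested genes of 6 lists (log2 scale, y axes that do not start at 0) in each Ki67- library, with WT as circles, APP/PS1 as squares and the group mean as a bar. The 5 libraries at 6 months are lowest for the immediate-early list, the 2 APP/PS1 libraries at 6 months are highest for the disease-associated list, and the 3 WT libraries at 6 months are lowest for the mitochondrial genome.

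The other programmes of microglia had no called gene. The medians were 0.07 over 20 microglial identity genes, -0.15 over 25 interferon-stimulated genes, -0.31 over 18 genes of antigen presentation, -0.20 over 18 cytokines and chemokines, 0.03 over 17 complement and Fc receptor genes, -0.09 over 26 toll-like receptor and inflammasome genes and -0.01 over 37 lysosomal genes. Tgfbr1, a TGF-beta receptor, had a difference of 0.57 ± 0.17 (limma adjusted p = 0.118) with all 5 libraries at 6 months above those at 4 months, and Trem2, the lipid receptor of microglia, had 0.45 ± 0.17 (limma adjusted p = 0.202). The class II gene H2-Aa had -1.06 ± 0.42 (limma adjusted p = 0.224), and Nlrp3, the sensor of the inflammasome, -0.84 ± 0.21 (limma adjusted p = 0.0783). In metabolism, the medians were 0.14 over 24 cholesterol genes, 0.06 over 17 lipid efflux genes and 0.10 over 24 glycolytic and hypoxia genes, and Fdps of the mevalonate pathway had the lowest p of them (0.80 ± 0.19, limma adjusted p = 0.0701). Ribosomal proteins (79 genes, median -0.02), the proteasome (32 genes, 0.01), the spliceosome (39 genes, -0.16) and the cell cycle (20 genes, 0.12) had no called gene either. In the list of TGF-beta and microglial transcription factors Jun alone was called, and its median over 24 genes was 0.19.

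**Figure D5:**
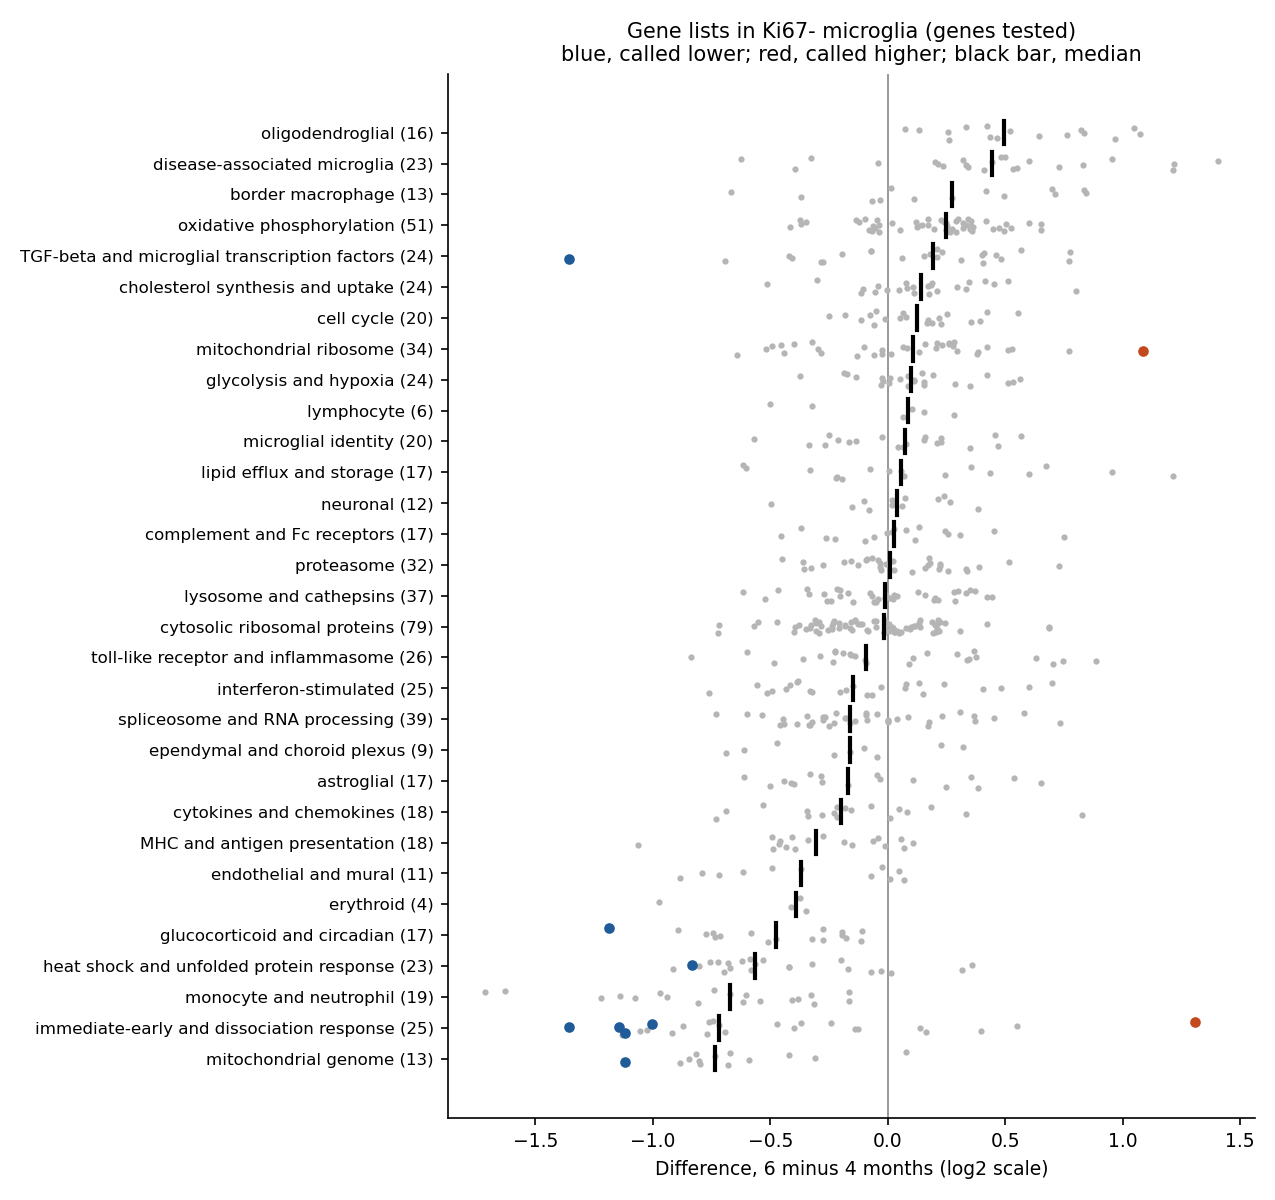
Difference between 6 and 4 months (log2 scale, x axis) of each tested gene in 31 lists, ordered by the median (black bar), with called genes in colour. The immediate-early list and the mitochondrial genome lie at the low end with medians of -0.72 and -0.73, and the oligodendroglial and disease-associated lists at the high end with 0.49 and 0.44.

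Markers of other cells moved with age in some libraries. Of the 19 tested monocyte and neutrophil genes none was called, yet all 19 differences were negative (median -0.67), and 11 had an unadjusted p under 0.05. Among all 12474 genes 1081 were lower at that level. The mean level of this list was 8.77, 8.66, 9.11, 8.05 and 9.67 in WT and 7.79, 8.44, 7.98 and 8.43 in APP/PS1 libraries at 4 months, against 8.57, 7.57 and 7.73 and 7.26 and 7.92 at 6 months, so the ages overlapped. The haptoglobin gene Hp had the lowest p of them (-1.22 ± 0.27, limma adjusted p = 0.0558), and the monocyte marker Ly6c2 had -1.14 ± 0.32. All 16 tested oligodendroglial genes had positive differences (median 0.49, none called), and their mean level was 9.67, 8.64 and 10.41 in the 3 WT libraries at 6 months, 8.22 and 8.26 in the 2 APP/PS1 libraries and 8.15 to 8.66 at 4 months. The WT replicates 1 and 3 at 6 months were thus the only libraries above the 4-month range by more than the whole 4-month spread. The median was -0.37 over 11 endothelial and mural genes and -0.17 over 17 astroglial genes (0.42 in WT and -0.92 in APP/PS1 mice). It was 0.27 over 13 border macrophage, 0.04 over 12 neuronal, 0.08 over 6 lymphocyte, -0.39 over 4 erythroid and -0.16 over 9 ependymal genes. None of the genes in these lists was called. The part of these cells in the calls was not tested, and fewer cells of a type cannot be told apart from less RNA per cell. Gh, a pituitary hormone gene, was called higher (1.96), at 3.87 to 6.39 and then 6.14 to 7.52, which is at or below the lower end of the scale for most libraries.

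The same ages were set beside each other in the Ki67+ libraries (5 WT and 4 APP/PS1 at 4 months, 2 and 2 at 6 months), with the group means of all 42 libraries in 1 fit. There 1575 genes (12.6%) were called higher and 2170 (17.4%) lower at 6 months. All 46 genes that fell in Ki67- microglia had a negative difference in Ki67+ microglia, and 31 of them were called lower there. Of the 31 that rose 27 had a positive difference there and 18 were called. Over all tested genes the median difference in Ki67+ microglia was -0.08. Most Ki67+ libraries at 6 months had early numbers in their titles, and most at 4 months had later ones. Library number was thus tied to age in both populations. The labels do not say whether Ki67- and Ki67+ libraries came from the same brains. The change with age differed between the populations for 959 genes (7.69%), among them 5 of the 31 genes that rose and 8 of the 46 that fell in Ki67- microglia.

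Jun was 1 of these genes, with -2.64 ± 0.29 in Ki67+ against -1.36 in Ki67- microglia (difference 1.29 ± 0.40, limma adjusted p = 0.0418). Junb (-2.08 in Ki67+), Klf6 (-2.12) and Fam71a (-2.52) also fell further in Ki67+ microglia, with limma adjusted p-values of 0.0216, 0.0228 and 0.0472 for the difference. Slc44a1 rose further there (2.66, adjusted p of the difference 0.0045), whereas Tstd2 had -0.01 and Lmo2 -0.33 in Ki67+ microglia, with adjusted p-values of 0.0171 and 0.00344 by limma for the difference. Ppp1r15a had -2.23 ± 0.28 in Ki67+ microglia, and its difference between the populations was not called (adjusted p 0.719 by limma). The genes with the lowest p in this comparison, Tmem88b, Trf, Gstp1, Ccp110 and Scd3, had differences of 0.33, 0.12, 0.04, -0.12 and -0.13 in Ki67- microglia and of 3.54, 2.40, 2.38, 2.70 and 1.63 in Ki67+ microglia, where the median of the oligodendroglial list was 3.01. Their calls thus came from the Ki67+ libraries.

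At 12 months Jun and Junb in Ki67- microglia were again near their 4-month level. Jun averaged 13.89 ± 0.07 (SD, n = 3) in WT and 13.76 ± 0.59 (SD, n = 4) in APP/PS1 libraries, against 14.25 and 14.05 at 4 months and 12.83 and 12.79 at 6 months. Junb averaged 12.71 and 13.04 after 12.80 and 12.74 at 4 months. COX2 averaged 12.92 and 13.03, above its 4-month means of 12.52 and 12.38. Ppp1r15a averaged 11.24 in WT and 10.88 in APP/PS1 libraries, between its levels at 4 and 6 months. Slc25a10 averaged 7.05 in WT and 8.41 ± 0.72 (SD, n = 4) in APP/PS1 libraries. Hpse averaged 5.24 and 8.36, and Cst7 7.77 and 13.54. These means were not tested against the other ages.

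The numbers that open the library titles were split into a first run and later numbers, and this split is tied to age. The cut lies where the order of ages starts again, not at the widest gap in the numbers. Within the first run the numbers rise with age, so that number order and age cannot be told apart there. The first run held 4 of the 5 libraries at 6 months and 3 of the 9 at 4 months. Within it no gene was called (limma, 7 libraries; lowest adjusted p 0.357), and 1354 genes had an unadjusted p under 0.05. All 31 genes called higher and all 46 called lower had the same sign there, which their choice on the same libraries favours, and the median of the immediate-early list was -0.69. Whether a number marks a day, a cage or an animal is not stated. The later numbers held the other WT library at 6 months and 3 WT and 3 APP/PS1 libraries at 4 months. In the fit of all 14 libraries with run as a term, all 77 genes again had the same sign, the median of the immediate-early list was -0.67, and Ppp1r15a had a difference of -1.90 (limma adjusted p = 0.0838).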

How the data were processed

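RNA of sorted Ki67- and Ki67+ microglia was sequenced in 42 libraries, of which the 14 Ki67- libraries at 4 and 6 months were analysed here. Per the submitters' processing notes, reads were demultiplexed with bcl2fastq 2.20, quantified with kallisto 0.43.1 and normalized with DESeq2. The deposited values, recorded here as a score, are on a log2 scale after the authors removed 10 surrogate variables, and the 42 columns have a rank of 32. They are not counts, so limma took the place of the count model that the study used. No column was left unmatched to a sample.

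Genes whose mean reached 7 in any of the 4 groups were fitted with limma 3.58.1 in R 4.3.3 (lmFit and eBayes), with age and genotype as terms and the Benjamini-Hochberg adjustment at 0.05. The removed directions were counted as spent, which left 8.02 residual degrees of freedom in place of 11, beside a prior of 7.22 (7.02 and 7.7 in the fit of 4 group means). The difference between Ki67- and Ki67+ microglia was fitted on all 12 groups with 20. Surrogate variables removed between groups could not be counted, so standard errors may be too small. Near-identical WT replicates 1 and 2 were kept as 2 libraries, since only 0.287% of the direction of their difference was left in the table (33.3% to 99.5% for the other pairs of the 4 groups), so that these values cannot show whether they are repeats of 1 library. They were also counted as 1. Tested on simulated data for the 6 against 4 months comparison (12474 genes), the fit recovered 82 of 100 genes shifted by 1 and 100 of 100 shifted by 2, and 4.21% of its calls were false. That share belongs to the simulated data, and the share of false calls among the genes called here was not estimated.

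Symbols altered by software were given back their usual spelling with RefSeq where they could be matched, and X4930502E18Rik was left as deposited. Promoters were taken from RefSeq (GRCm38.p6). Named genes were the 12 per direction with the lowest p among called genes with separated values (predicted transcripts left out), up to 4 per list, the 5 with the lowest p for each difference between groups, and 4 markers; others were chosen after their values were seen. The lists and the comparison itself were chosen with earlier results of these data known. Python 3.11.15 with matplotlib 3.10.9 drew the plots. Alternatives tried were all 42 libraries in 1 fit, nominal degrees of freedom, other filters, trend and robust options, median subtraction, each genotype alone, the first run of library numbers, run as a term (added after the data were seen) and each library left out.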

Additional observations from a re-analysis of the deposited data

Results flagged for a closer look

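Of 56 groups of values checked for 1 far library (28 genes in the WT and the APP/PS1 libraries at 4 months), 8 held a library whose gap to its nearest neighbour was above Dixon's 95% critical value, where chance flags about 1 in 20. In the APP/PS1 libraries replicate 1 was far for Slc16a1 (8.17) and replicate 3 for Jun (14.66), each above the others. In the WT libraries replicate 3 lay below the others for Taf13 (8.77), Cx3cr1 (14.38) and Tmem119 (14.25). WT replicate 5 lay below the others for COX2 (12.11) and above them for Vac14 (9.40) and Hpse (5.77).

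For 13 of the 77 called genes and the 5 genes with the lowest p in this comparison, the change from 4 to 6 months differed between Ki67- and Ki67+ microglia, by limma on the 12 groups. The change in Ki67- minus that in Ki67+ microglia was 1.29 for Jun, 0.96 for Junb, 1.11 for Klf6, 1.25 for Fam71a, 0.97 for Abcd4, 1.07 for Lmo1 and 1.01 for Tnfaip3, whose differences were negative in both. It was -1.0001 for Mpv17l2, called lower in Ki67- microglia, and 1.30 for Tstd2, 1.39 for Lmo2, 1.06 for Evl and 1.76 for Trim30d, called higher there. It was -1.68 for Slc44a1, called higher in Ki67- microglia and with a positive difference in both. It was -3.32 for Tmem88b, -2.25 for Trf, -2.41 for Gstp1, -2.88 for Ccp110 and -1.78 for Scd3, whose Ki67- values did not pass the test between ages.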

How the results depend on the processing

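The direction of the 24 leading genes was the same in all 646 refits, but their calls were not, with 147 of 310 lost in the planned and added alternatives and 226 of 336 when 1 library was left out. Against 31 genes higher and 46 lower, the counts were 66 and 86 in a fit of all 42 libraries, 375 and 442 with nominal degrees of freedom, 2 and 9 without the filter, 47 and 92 with the trend and robust options, and 0 and 0 for WT libraries only, for APP/PS1 libraries only, for the first run of library numbers and for run as a term. They were 6 and 12 with WT replicates 1 and 2 at 4 months averaged and 0 and 1 without both. Leaving out 1 library gave 0 to 21 higher and 1 to 28 lower. Median subtraction, a minimum mean of 8 and the plain mean of both genotypes stayed within 1.5 times of both counts. In WT mice, where 0 were called, all 42 libraries gave 11 higher and 10 lower and nominal degrees of freedom 189 and 214, and leaving out 1 library 0 to 13 and 0 to 1 (13 and 1 without WT replicate 2 at 6 months). In APP/PS1 mice (8 and 1) these gave 17 and 8, 169 and 147, and 0 to 8 and 0 to 1, and no filter gave 3 and 0. For the difference between genotypes (0 and 0) nominal degrees of freedom gave 7 and 2, with Aplp1, Axl, Zfp956 and X4930502E18Rik then called. For age by Ki67 state (512 and 447) leaving out 1 library gave 210 to 550 and 277 to 440, lowest without WT Ki67+ replicate 2 at 6 months. No paired analysis was possible because the labels give no replicate numbers. The causes of these shifts were not tested beyond the smaller numbers of libraries, genes or degrees of freedom that the alternatives themselves set. Depth is unknown, and 5 libraries at 6 months limit the precision.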
